A study of Mus musculus with 17 samples.

Results

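Cytochrome P450 genes of families 1 to 4 were examined in mouse bile duct, as sequenced for an investigation of cancer of the extrahepatic ducts. The set comprised every protein-coding row of the gene table whose name begins with Cyp1, Cyp2, Cyp3 or Cyp4 and a letter, with no filter on level, which gave 82 of 43346 rows. It held 3 genes of family 1, 50 of family 2, 9 of family 3 and 20 of family 4. All 17 samples were labelled as total RNA of bile duct tissue, and the labels set no sample apart by genotype, treatment, age or sex. Nothing in the labels ties a sample to an animal, and p-values therefore measure only the spread between these libraries, which may be technical. The libraries carry 6 column codes (R62848, R62850, R63289, R63494, R63496 and R63500) with 3 libraries each, or 2 for R63494. The sources used here leave the meaning of a code unstated, and no comparison of conditions could be made.

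Cytochromes P450 are haem enzymes of the endoplasmic reticulum that insert 1 atom of oxygen into their substrates, with electrons passed on from NADPH by the reductase encoded by Por. Families 1 to 3 handle drugs, toxins and steroids and are best known from hepatocytes, where nuclear receptors and the aryl hydrocarbon receptor induce many of them. Family 4 hydroxylates fatty acids and eicosanoids at or near the end of the chain. Duct epithelium meets many of the same compounds in bile.

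Library totals ran from 16400556 to 24152314 counts, and 3 counts in a library corresponded to 0.130 to 0.206 CPM (counts scaled to the TMM-adjusted total of the genes that passed the count filter). Of 15 cholangiocyte markers 14 passed the count filter, with a summed level of 8405 to 11424 CPM. Hepatocyte markers were mostly at trace level: 6 of 15 passed the filter, and Alb, the albumin gene, lay between 0.921 and 31.8 CPM. Their summed level of 273 to 1018 CPM came mainly from Ttr and Ambp, which had medians of 411 and 125 CPM. The 3 R62850 libraries stood apart by pancreatic acinar transcripts, with 6096 to 138546 CPM summed over 12 markers, against 41.3 to 160.1 CPM in the other 14 libraries.

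P450 transcripts of families 1 to 4 were few and were spread over a small number of genes. They took between 0.0473% of all counts in R63500_2 (95% Wilson interval 0.0463% to 0.0484%) and 0.0927% in R62850_1 (0.0913% to 0.0941%), with a median of 0.0670%. Intervals cover counting error only. Of the 82 genes 10 had no count in any library, 46 had counts but did not pass the filter, and 26 passed. The share that passed was 31.7%, against 62.7% of all 22032 protein-coding rows. A further measure, RPKM (CPM per kilobase of gene length), allows levels of different genes to be compared. A median of at least 1 RPKM was reached by 22 members (26.8%), against 57.5% of protein-coding rows, and 8 members reached 10. Summed over all members, the level was lowest at 168 RPKM in R63500_2, had a median of 242 RPKM and was highest at 354 RPKM in R62850_1. The 5 members with the highest medians held 48.3% to 61.6% of that sum. The plot of levels by gene shows how steeply they fell off.

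**Figure D1:**
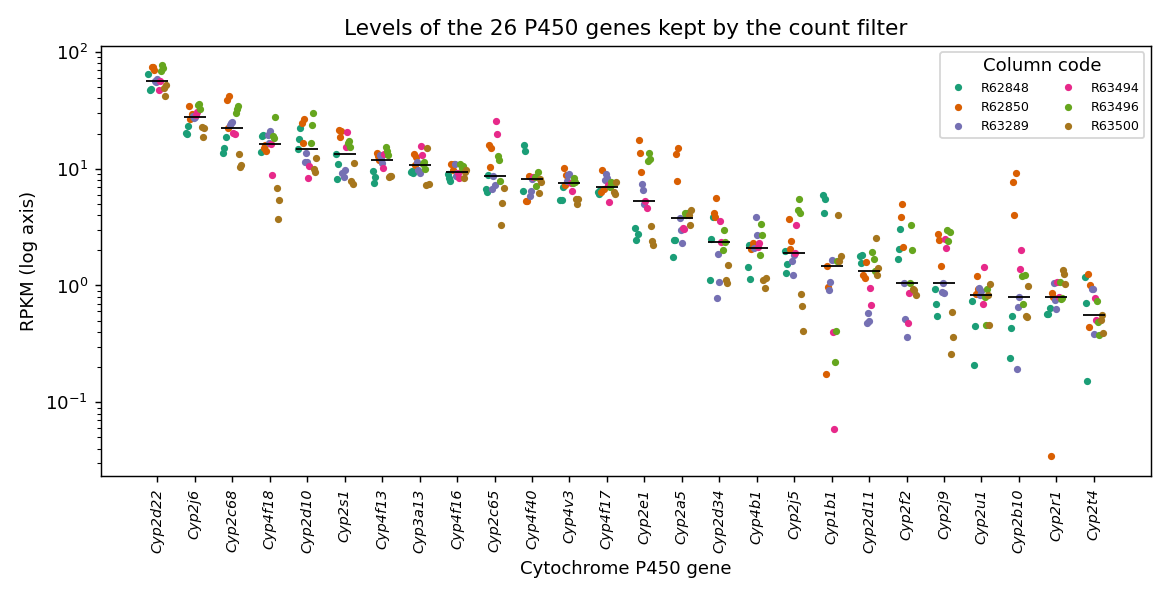
RPKM on a log axis of the 26 P450 genes that passed the count filter, ordered by median. Each point is a library, coloured by column code, and the black line is the median over 17 libraries. Cyp2d22 stood highest with a median of 56.5 RPKM, and Cyp1b1, Cyp2b10 and Cyp2r1 had the widest spreads.

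Genes of family 2, the largest and most varied drug-metabolizing family, held most of the signal, with 108 to 273 RPKM in sum. Cyp2d22, a mouse gene often set beside the human drug oxidase CYP2D6 (ENSMUSG00000061740, mm10 chr15:82370528-82380260), was the highest member in median. Its level was 42.0 RPKM at the lowest, 56.5 at the median and 76.5 at the highest, and it made up 18.8% to 29.4% of the summed RPKM. The next member was Cyp2j6 (ENSMUSG00000052914, chr4:96516138-96553661), of the subfamily that includes the human arachidonic acid epoxygenase CYP2J2. It had 18.8 RPKM at the lowest, a median of 27.9 and 35.6 at the highest. Cyp2c68 (ENSMUSG00000074882, chr19:39688834-39741054) followed with 10.4, 22.4 and 41.5 RPKM on the same scale. Its subfamily oxidizes drugs and arachidonic acid. These were the only 3 members with a median above 20 RPKM.

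Further family 2 genes with medians above 10 RPKM were Cyp2d10 (14.7, from 8.38 to 30.1 RPKM) and Cyp2s1 (13.4, from 7.33 to 21.5 RPKM). CYP2S1 is known as an enzyme of epithelia outside the liver that can oxidize retinoic acid. Cyp2c65, an arachidonic acid oxidase known from the mouse gut, had a median of 8.71 RPKM and a range of 3.27 to 25.8. Below these stood Cyp2e1, the ethanol-oxidizing enzyme, with a median of 5.27 RPKM, and Cyp2a5, the coumarin hydroxylase, with 3.75. Cyp2r1, a vitamin D 25-hydroxylase, had a median of 0.797 RPKM, with 1 count in R62850_1 and 17 to 46 counts in each of the other 16 libraries.

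Family 3 was represented by a single gene. Cyp3a13 (ENSMUSG00000029727, chr5:137892932-137921619), a relative of the human drug-metabolizing CYP3A4, had 7.31 RPKM at the lowest, a median of 10.7 and 15.6 at the highest. The other 8 family 3 genes did not pass the filter. The highest among them was Cyp3a11, a main CYP3A enzyme of mouse liver, at a median of 0.163 RPKM and at most 4.06 CPM.

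Family 4 summed to 42.9 to 79.5 RPKM and was dominated by the Cyp4f subfamily, which hydroxylates leukotrienes and long fatty acids. Cyp4f18 (ENSMUSG00000003484, chr8:71988482-72009626), the leukotriene B4 hydroxylase of mouse neutrophils, had a median of 16.2 RPKM and a range of 3.68 to 27.4. Cyp4f13 had a median of 11.97 RPKM, Cyp4f16 of 9.39, Cyp4f40 of 8.08 and Cyp4f17 of 6.90. Cyp4v3, whose human counterpart CYP4V2 is mutated in a crystalline retinal dystrophy, had a median of 7.57 RPKM. All 8 Cyp4a genes, targets of the fatty acid receptor PPARα in mouse liver and kidney, were below the filter. The highest, Cyp4a32, had a median of 0.223 RPKM.

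In family 1, the family induced through the aryl hydrocarbon receptor, Cyp1b1 alone passed the filter. Cyp1b1, known for oestradiol and polycyclic hydrocarbon oxidation, had a median of 1.46 RPKM and a range of 0.0591 to 5.93. Cyp1a1, the classical inducible gene of that receptor, had 51 counts in all over 10 libraries and at most 0.735 CPM. Cyp1a2, known as a hepatocyte enzyme, had 2 counts in all, both in 1 library.

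Most members lie in tandem arrays, and within each array 0 to 5 genes passed the filter. Joining members less than 1000 kb apart gave 18 loci, of which 7 held 8 or more genes. In the Cyp2c array on chromosome 19 (chr19:39007019-40187333) 2 of 14 genes passed, Cyp2c65 and Cyp2c68. Their neighbours Cyp2c66 and Cyp2c67 had medians of 0.0498 and 0.354 RPKM. In the Cyp2j array on chromosome 4 (chr4:96027534-96664154) the 3 genes at one end, Cyp2j6, Cyp2j9 and Cyp2j5, passed, and the other 5 did not. The Cyp2d array (chr15:82370528-82794245) had 4 of 9 genes, and the Cyp4f array (chr17:32468462-32947402) 4 of 8. Of the 8 genes of the Cyp3a array (chr5:145345279-146113285) none passed, and Cyp3a13 lies apart from it on the same chromosome. The bar plot of arrays shows that an abundant gene often stood next to genes without signal.

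**Figure D2:**
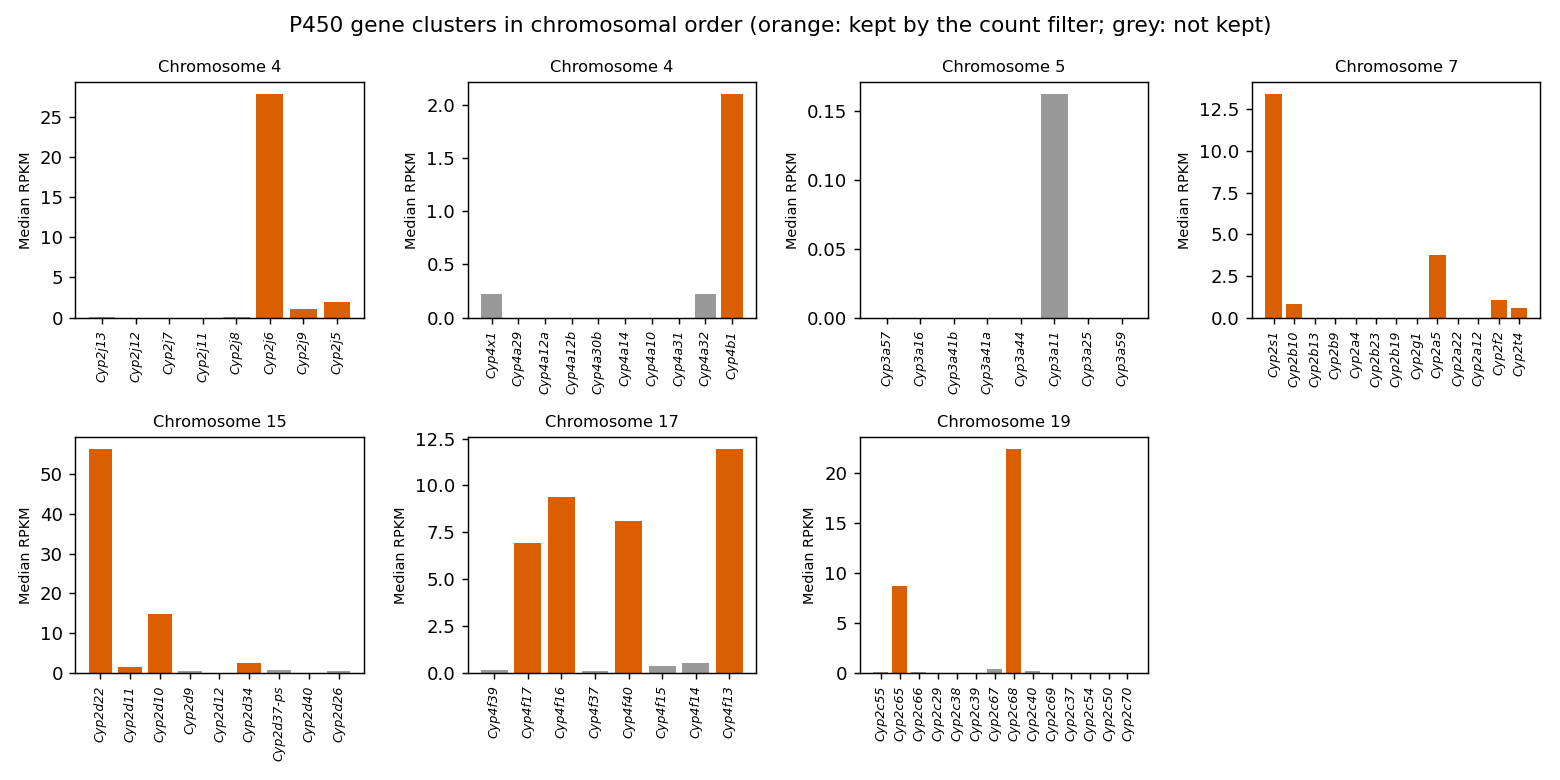
Median RPKM over 17 libraries of the P450 genes in the 7 loci of 8 or more members, in chromosomal order, with a separate scale per panel. Orange bars passed the count filter and grey bars did not. Cyp2j6, Cyp2d22 and Cyp2c68 rise above neighbours that are mostly near 0.

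Near-identical copies limit how single genes in these arrays can be read. Coding sequences of 81 members were compared within subfamilies. The member without one was Cyp2d37-ps, which is named as a pseudogene but labelled protein-coding, and is therefore counted among the 82 genes. Cyp2c68 was 97.15% identical to Cyp2c67, and 22.93% of its 100-base coding windows also occur in another member. For Cyp2a5, whose closest copy is Cyp2a4 at 98.45% identity, that share was 13.23%, and for Cyp2d10 it was 16.28%. For Cyp2d22 it was 0.43%. Cyp2a4 itself had 5 counts in all, so few reads were assigned to it. Reads of such copies may have been split or dropped in counting, and the levels of Cyp2c68, Cyp2c65, Cyp2d10, Cyp2d11, Cyp4f16 and Cyp2a5 are uncertain to that extent. Cyp4f18 overlaps Zfp961 (19.3 CPM in median), Cyp2t4 overlaps Egln2 (72.1 CPM) and Cyp4v3 overlaps Klkb1 (0.109 CPM), so their counts may share reads.

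Promoters of 66 members were matched in RefSeq (build GRCm38.p6, the assembly also named mm10, from 250 bases before to 50 bases after the annotated start). As some genes have more than 1 start, these gave 73 entries. CpG-rich promoters were rare: 10 or more CpG dinucleotides stood in 4 of 23 entries of genes that passed the filter and in 1 of 50 entries of genes that did not. Among all 32851 promoters in that table the share was 43.5%. The 4 genes were Cyp2r1 (22 CpG), Cyp2s1 (17), Cyp4v3 (17) and Cyp1b1 (16). The motif TATAAA on either strand was present in 26.1% of entries of genes that passed and 46.0% of those that did not, against 13.6% of all promoters. CCAAT on either strand, whose last letter can be the first of TATAAA, was in 52.2% and 44.0%, against 37.4%. These matches describe letters in the window and not sites in use. The following 6 promoters, 5′ to 3′ on the minus strand, carry CG and TATAAA in capitals. The first 3 are CpG-rich. Cyp2j6 is the most abundant member with a promoter entry, and Cyp2c68 is shown with its low neighbour Cyp2c67.
Cyp2s1 promoter, chr7:25816476-25816775, minus strand: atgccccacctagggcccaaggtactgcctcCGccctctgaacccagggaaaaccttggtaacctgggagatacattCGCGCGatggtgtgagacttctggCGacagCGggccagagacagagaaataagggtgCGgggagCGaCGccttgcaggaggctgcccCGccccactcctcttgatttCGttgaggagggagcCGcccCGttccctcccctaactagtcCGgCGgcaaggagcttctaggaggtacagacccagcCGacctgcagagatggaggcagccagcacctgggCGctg
Cyp4v3 promoter, chr8:45333114-45333413, minus strand: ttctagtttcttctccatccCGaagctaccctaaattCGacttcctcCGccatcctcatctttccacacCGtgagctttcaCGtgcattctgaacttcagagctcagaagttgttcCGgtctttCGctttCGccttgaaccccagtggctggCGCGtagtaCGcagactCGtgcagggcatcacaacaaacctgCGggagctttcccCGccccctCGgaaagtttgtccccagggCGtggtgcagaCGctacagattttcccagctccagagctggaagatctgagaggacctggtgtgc
Cyp1b1 promoter, chr17:79715012-79715311, minus strand: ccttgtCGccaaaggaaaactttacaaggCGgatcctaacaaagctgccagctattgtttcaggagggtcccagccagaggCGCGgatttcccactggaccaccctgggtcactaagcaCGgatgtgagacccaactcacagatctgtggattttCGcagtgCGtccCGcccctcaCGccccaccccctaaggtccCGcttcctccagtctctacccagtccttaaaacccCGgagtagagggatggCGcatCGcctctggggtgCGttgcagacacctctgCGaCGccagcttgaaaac
Cyp2j6 promoter, chr4:96553602-96553901, minus strand: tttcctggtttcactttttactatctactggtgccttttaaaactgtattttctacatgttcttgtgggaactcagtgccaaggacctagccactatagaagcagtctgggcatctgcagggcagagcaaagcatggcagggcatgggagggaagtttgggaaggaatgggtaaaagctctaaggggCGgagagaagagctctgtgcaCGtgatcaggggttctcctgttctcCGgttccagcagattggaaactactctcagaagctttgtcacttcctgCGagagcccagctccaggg
Cyp2c68 promoter, chr19:39741052-39741351, minus strand: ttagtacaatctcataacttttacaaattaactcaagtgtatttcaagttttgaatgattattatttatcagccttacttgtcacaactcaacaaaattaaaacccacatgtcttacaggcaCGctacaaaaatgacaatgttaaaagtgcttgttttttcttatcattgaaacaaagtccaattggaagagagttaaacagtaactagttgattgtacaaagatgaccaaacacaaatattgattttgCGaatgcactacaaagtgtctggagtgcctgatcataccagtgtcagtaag
Cyp2c67 promoter, chr19:39648993-39649292, minus strand: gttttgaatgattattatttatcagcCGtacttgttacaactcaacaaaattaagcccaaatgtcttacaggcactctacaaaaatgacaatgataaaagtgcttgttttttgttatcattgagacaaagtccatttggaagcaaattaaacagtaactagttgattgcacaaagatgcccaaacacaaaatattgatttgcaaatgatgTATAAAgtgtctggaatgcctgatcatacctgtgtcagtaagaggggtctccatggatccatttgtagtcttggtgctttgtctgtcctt

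Members with few CpG dinucleotides in this window included abundant ones. Cyp2j6 had 4 CpG dinucleotides at a median of 27.9 RPKM and Cyp2c68 had 2 at 22.4 RPKM, while Cyp2r1 had 22 at 0.797 RPKM. The Cyp2c68 and Cyp2c67 windows aligned over 251 bases with 91.6% identity, with medians of 22.4 RPKM for Cyp2c68 and 0.354 RPKM for Cyp2c67. The TATAAA of Cyp2c67 lies at positions 211 to 216 of the printed sequence, counted from its 5′ end. At the aligned bases Cyp2c68 differs by T213C (Cyp2c67 base first, numbered in Cyp2c67). The 2 windows are set by different annotated starts. By the RefSeq starts that set the windows, the aligned bases lie before the start in Cyp2c67 and after it in Cyp2c68. By the starts in the gene table, 39649051 for Cyp2c67 and 39741054 for Cyp2c68, they lie before the start in both genes. Their distance from a start therefore depends on the annotation. The scatter of CpG count against level shows all 73 entries.

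**Figure D3:**
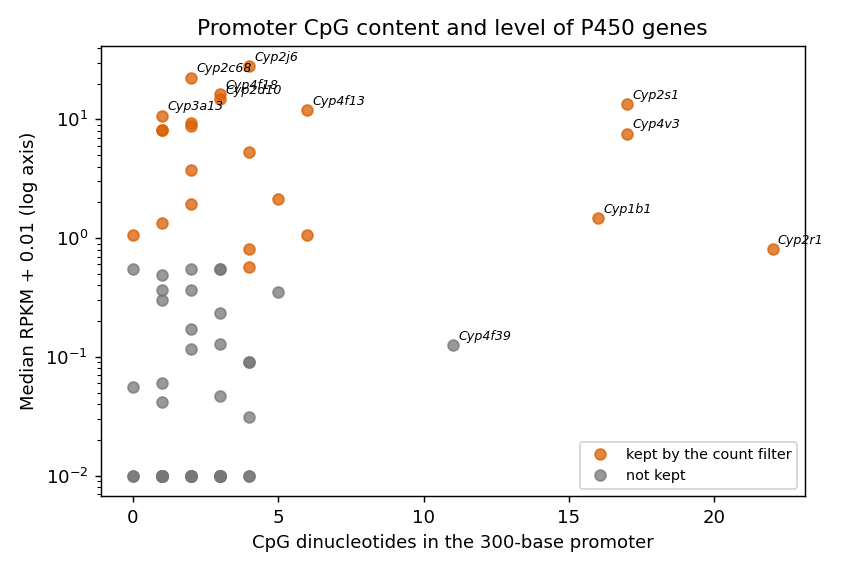
CpG dinucleotides in the promoter window (x) against median RPKM plus 0.01 on a log axis (y) for 73 promoter entries of 66 P450 genes. Orange points passed the count filter and grey points did not. Cyp2j6 with 4 CpG sits at the upper left, and the CpG-rich Cyp2s1 and Cyp4v3 lie at 17.

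P450 levels differed between column codes for most of the genes that could be tested. In an edgeR quasi-likelihood F test over the 6 codes, 19 of 26 members had a Benjamini-Hochberg adjusted p below 0.05 (73.1%), and 48.7% of all 15795 genes tested did. By family these were 1 of 1 tested in family 1, 14 of 17 in family 2, 0 of 1 in family 3 and 4 of 7 in family 4. The test asks only whether libraries of a code resemble each other more than libraries of other codes. The members also spanned wider ranges, given here as the highest over the lowest CPM after adding a prior count of 2, which understates the range of low genes. The median range was 5.31-fold over the members and 1.95-fold over all genes tested. Their median level was lower (10.7 CPM, against 24.6 CPM over all genes tested), and the part of level in the range was not tested. A range under 2-fold was found for 4 of 26 members and 51.9% of all genes tested. The 4 were Cyp4f16, Cyp2d22, Cyp4f17 and Cyp2j6.

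**Figure D4:**
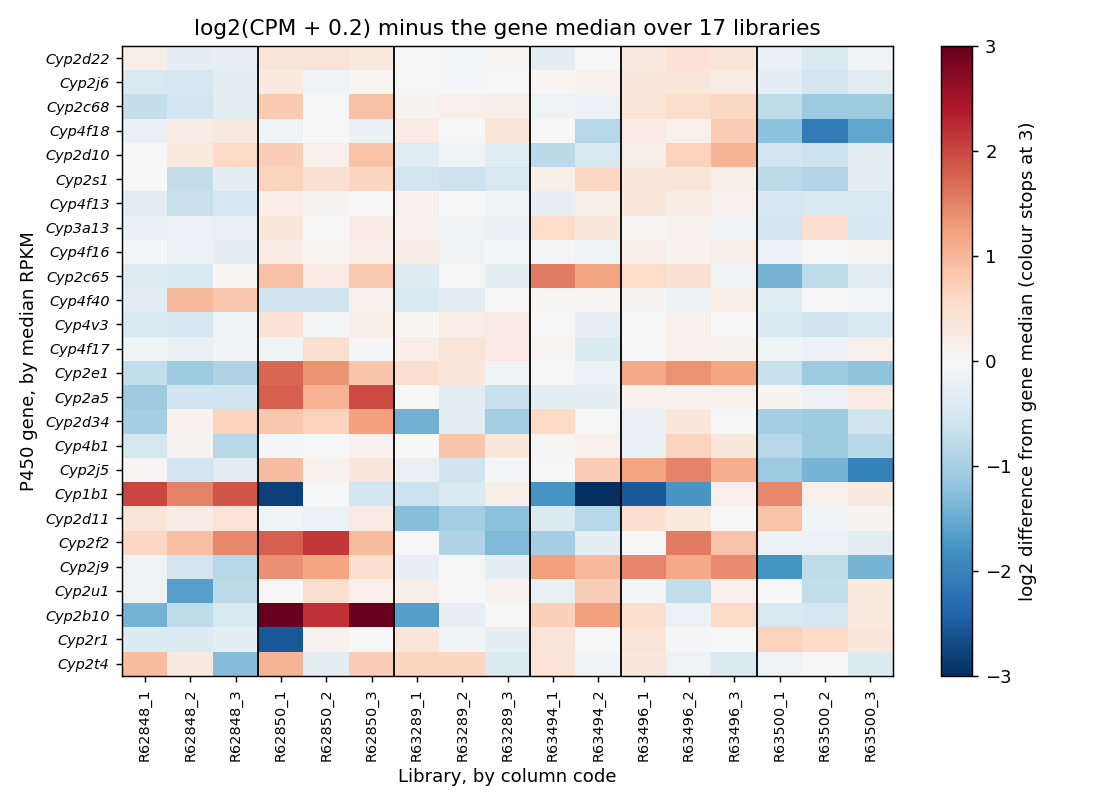
log2(CPM + 0.2) of the 26 P450 genes minus each gene's median over the 17 libraries, with genes by median RPKM and libraries by column code. Red is above and blue below the gene's median, and the colour stops at 3. Of the 26 genes, 16 to 22 lie above their median in the R62850 libraries, 19 to 20 in R63496 and 4 to 8 in R63500.

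The codes did not hold equal shares of the high and low values. R62850 had the highest mean log2 level for 11 of 26 members (42.3%), against 18.8% of all genes tested, and R63496 for 6 (23.1%, against 13.4%). R63500 had the lowest for 11 members (42.3%, against 14.6%) and R62848 for 7 (26.9%, against 19.1%). In bulk tissue, fewer cells of a type and less RNA per cell cannot be told apart. The fibroblast marker sum was highest in the codes that were most often lowest for members. The sum of 10 markers was 10345 to 10996 CPM in R62848 and 9751 to 11839 CPM in R63500. It was 4953 to 5125 CPM in R62850, 4585 to 6646 CPM in R63496 and 4603 to 5687 CPM in R63289. R63494 had the lowest sum, 2814 to 3077 CPM. That code had the highest mean log2 level for 3 members (11.5%, against 21.6% of all genes tested). All 10 markers passed the filter. The sum of 8 endothelial markers was also highest in these codes, at 460 to 521 CPM in R62848 and 346 to 426 CPM in R63500. Elsewhere it was 235 to 312 CPM. The cholangiocyte marker sum was 8474 to 8969 CPM in R62848 and 8508 to 10273 CPM in R63500. These values lay within the 8405 to 11424 CPM of the other codes. The part of stroma in the lower P450 levels of R62848 and R63500 was not tested.

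Among the 26 members that passed the filter, separation of a whole code from every other library was seen for few. All R62850 libraries stood above every other library for 2 members, Cyp2b10 and Cyp2a5 (2.41% of all genes tested did so), and all R63500 libraries below for 3, Cyp2j5, Cyp4f18 and Cyp2c68 (1.5%). For 1 member each, all R62848 libraries (Cyp1b1, 2.87%), all R63494 libraries (Cyp2c65, 4.43%) and all R63496 libraries (Cyp2j5, 0.823%) were above. All R63289 libraries were below for Cyp2d11 (0.481%). The plot of 8 genes by code shows these patterns. Splits by 2 or more codes together, given below, were chosen after the values were seen. The share of all genes tested with such a split was not counted. The filter asks for counts in most libraries, so a gene limited to 1 code cannot pass and was not counted here. Below the filter, Cyp4f14 had 2.47 to 3.21 CPM in R62850, against 0.0485 to 2.07 CPM elsewhere. Cyp3a44 had counts only in R63289. The share of such genes over the whole gene table was not counted.

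**Figure D5:**
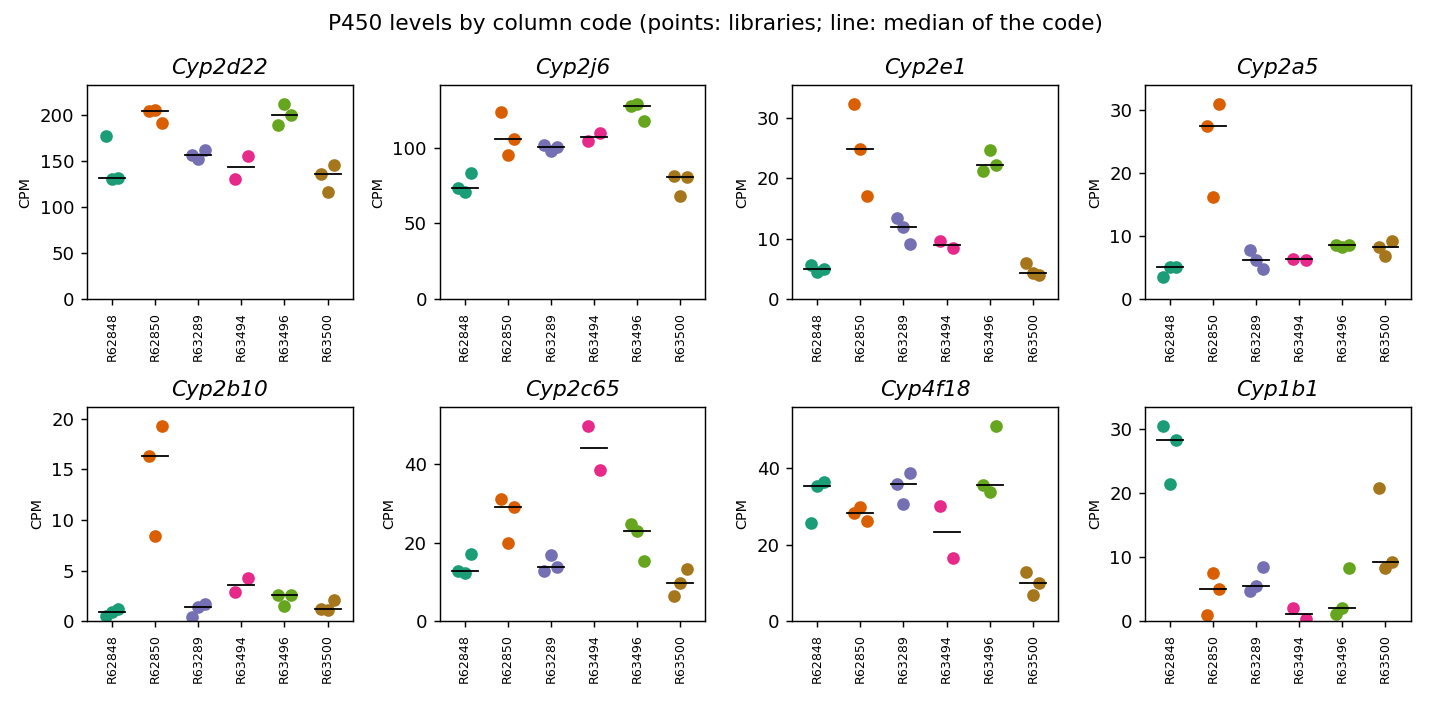
CPM of 8 P450 genes in each library by column code, on axes that start at 0, with 1 point per library and a line at the median of the code. Cyp2a5 and Cyp2b10 are highest in R62850, Cyp2c65 in R63494 and Cyp1b1 in R62848, and Cyp4f18 is lowest in R63500.

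Cyp2b10, the classical phenobarbital-inducible gene under the receptor CAR, had 16.3, 8.40 and 19.3 CPM in the R62850 libraries, against 0.403 to 4.25 CPM elsewhere (adjusted p = 6.6e-07, edgeR). The R62850 values did not overlap the rest. The range over all libraries was 37.8-fold, and 8.498-fold without R62850. Cyp2a5 had 27.4, 16.2 and 30.9 CPM in R62850, against 3.61 to 9.27 CPM elsewhere (adjusted p = 3.96e-07), and its range was 2.52-fold without R62850 and 8.35-fold with it. Cyp2e1 was high in 2 codes. It had 32.2, 24.8 and 17.1 CPM in R62850 and 21.3, 24.7 and 22.2 CPM in R63496, against 4.05 to 13.5 CPM in the other 11 libraries (adjusted p = 3.96e-08). Cyp2f2, known from airway club cells, had 7.89, 10.04 and 4.32 CPM in R62850, and its range elsewhere, 0.734 to 6.67 CPM, overlapped these. The club cell marker Scgb1a1 was at most 0.474 CPM and Scgb3a2 had no counts. Which cells gave the Cyp2f2 counts was not tested.

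The R62850 libraries held the acinar transcripts described above, with the highest sum in R62850_3. Genes that passed the filter held 15029310 of 17472699 counts in R62850_3, and CPM values of that library rest on the smaller number, so small differences between it and R62850_1 depend on the scaling. The intestinal marker sum was 2228 to 2628 CPM in R62850, against 1179 to 2152 CPM elsewhere, with 5 of 12 markers past the filter. Its enterocyte markers Fabp2 and Apoa4 reached at most 8.45 and 9.36 CPM, and Sis had a median of 0. The hepatocyte marker sum was 709 to 1018 CPM in R62850, against 273 to 399 CPM in R62848, 329 to 448 CPM in R63500 and 497 to 801 CPM in the other codes. That sum came mainly from Ttr and Ambp, and 6 of 15 markers passed the filter. Alb did not follow it, with its highest levels in R62848_3 and R63289_3. The part of other tissue in the higher P450 levels of R62850 was not tested. Without R62850, 18 of 25 members still tested differed between the remaining codes, as did 40.9% of all genes in that fit.

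All 3 Cyp2j genes that passed the filter differed between codes, against a share of 48.7% over all genes tested. Cyp2j6 stood at 117 to 128 CPM in R63496 and at 67.9 to 82.9 CPM in R62848 and R63500 (adjusted p = 2.19e-05, edgeR). R62850 overlapped R63496, with 95.2 to 123 CPM, and R63289 and R63494 had 97.9 to 109 CPM. Cyp2j5, an arachidonic acid epoxygenase known from mouse kidney, had 10.4, 12.9 and 9.80 CPM in R63496, against 0.948 to 8.68 CPM elsewhere (adjusted p = 1.05e-05). In R63500 it was lowest, at 1.99, 1.58 and 0.948 CPM. Its range was 12.4-fold, and 7.73-fold without R63500_3. Cyp2j9 had 7.97 to 9.99 CPM in R63496, against 0.872 to 1.97 CPM in R63500 (adjusted p = 1.95e-06, edgeR). Its levels in R62850 (4.94 to 9.30 CPM) and R63494 (7.02 to 8.41 CPM) overlapped those of R63496. Cyp2c68 was likewise low in R63500, at 18.0 to 22.8 CPM, and reached 71.6 CPM in R62850_3 (adjusted p = 5.61e-06).

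Cyp2c65 followed another order. Both R63494 libraries had the highest levels, 49.7 and 38.5 CPM, against 6.30 to 31.0 CPM elsewhere (adjusted p = 3.99e-05). By the median of the code, R62850 came next with 29.1 CPM and R63500 was lowest with 9.81 CPM, though single libraries of R62850 and R63500 overlapped those of other codes. Its range was 7.77-fold, and 5.02-fold without R63500_1. Cyp2s1 was at 75.1 CPM or more in every library of R62850, R63494 and R63496 and at most 66.4 CPM in the other 9 libraries (adjusted p = 3.71e-05).

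All 4 Cyp2d genes that passed the filter differed between codes, as did 48.7% of all genes tested. Cyp2d22 had 204, 206 and 192 CPM in R62850 and 189, 212 and 200 CPM in R63496, against 116 to 178 CPM elsewhere (adjusted p = 0.000352, edgeR). These 2 codes, paired after the values were seen, did not overlap the other libraries. The share of all genes tested that they would set apart was not counted. Cyp2d10 reached 49.6 CPM in R63496_3 and was lowest at 13.8 CPM in R63494_1 (adjusted p = 0.000237). Its near copy Cyp2d11 was lowest in R63289, with 0.756, 0.930 and 0.791 CPM, against 1.08 to 4.02 CPM elsewhere (adjusted p = 0.00233). Cyp2d34 ran from 1.26 CPM in R63289_1 to 9.12 CPM in R62850_3 (adjusted p = 0.00218).

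Cyp4f18 was lowest in the R63500 libraries, with 12.7, 6.83 and 10.002 CPM, against 16.4 to 50.9 CPM elsewhere (adjusted p = 0.000127). The groups did not overlap. Neutrophil markers, a list added after the P450 values had been seen, were also lowest in R63500: the sum of 9 markers was 265 to 477 CPM there, against 573 to 1651 CPM elsewhere. Of these markers 6 passed the filter, and Mpo and Elane had medians of 0. Within R63494, Cyp4f18 had 30.1 and 16.4 CPM. The part of neutrophil number in the Cyp4f18 level was not tested. Of the other Cyp4f genes Cyp4f13 differed between codes (adjusted p = 0.000102), with 25.1 to 31.8 CPM in R62848 and R63500, against 33.8 to 50.8 CPM elsewhere. Cyp4v3 ran from 31.4 CPM in R63500_2 to 63.5 CPM in R62850_1 (adjusted p = 0.000299). Cyp4b1, known for bioactivating lung and bladder toxins, ran from 2.14 CPM in R63500_2 to 8.66 CPM in R63289_2 (adjusted p = 0.00633).

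Cyp1b1 ran opposite to most members. It stood at 30.4, 21.4 and 28.2 CPM in R62848, against 0.303 to 20.7 CPM elsewhere (adjusted p = 0.0131). R63500 followed with 20.7, 8.29 and 9.16 CPM, and R63494 had 2.06 and 0.303 CPM. The 2 codes with the highest fibroblast sums, R62848 and R63500, also had the highest Cyp1b1 medians, although single libraries of R63496 and R63289 reached 8.36 and 8.47 CPM. Its 74.1-fold range was the widest of the 26 members and rested in part on R63494_2, as it was 30.2-fold without it. The spread within codes was also wide, with a log2 SD of 1.096, against a median of 0.318 over the members. Ahr, which encodes the receptor upstream of Cyp1b1, was at 87.6 to 125 CPM in R62848 and 96.7 to 125 CPM in R63500, against 45.6 to 87.4 CPM elsewhere (adjusted p = 4.1e-07). Other genes tied to that receptor were split. Tiparp had 21.6 to 24.8 CPM in R62848, against 11.8 to 20.1 CPM in R62850, R63289, R63494 and R63496 (adjusted p = 0.00721, edgeR). It had 25.04 and 25.74 CPM in R63500_2 and R63500_3, while R63500_1 lay within the lower range. Aldh3a1 had 35.7 to 57.1 CPM in R62848 and 22.96 to 43.7 CPM in R63500, but 39.9 to 57.8 CPM in R62850. Cyp1a1 had no counts in R62848, and Nqo1 had 91.8 to 125 CPM in R62850, against 63.4 to 74.6 CPM in R62848. The parts of fibroblasts and of the receptor in the Cyp1b1 level were not tested.

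A further 7 tested members did not reach the threshold between codes. Cyp3a13 had 21.6 to 46.2 CPM (adjusted p = 0.161). Without R63500_2, which had 44.6 CPM beside 21.6 and 22.1 CPM in the other R63500 libraries, its adjusted p was 0.000215, and over all alternatives it ran from 0.000215 to 0.435. Cyp4f40 had 29.8 and 26.6 CPM in R62848_2 and R62848_3, beside 11.9 CPM in R62848_1 (adjusted p = 0.0546). Its adjusted p was 0.000557 without R62848_1, 0.0205 without R62850_3 and 0.0121 in DESeq2, and it reached 0.278 without R62848_2. Cyp4f16 had the narrowest range of the 26 members, 1.41-fold (adjusted p = 0.0946), and stood at 0.0493 in DESeq2 and between 0.0493 and 0.173 over all alternatives. Cyp4f17 (adjusted p = 0.233), Cyp2u1 (0.238), Cyp2r1 (0.38) and Cyp2t4 (0.693) made up the rest. The 14.1-fold range of Cyp2r1 came from 1 count in R62850_1 and was 2.27-fold without that library.

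Some liver P450 genes appeared at trace level in few libraries. The libraries with the most members counted, R63289_3 with 59 and R62848_3 with 52, also had the highest Alb levels, 22.1 and 31.8 CPM. Cyp3a44, a CYP3A gene of mouse liver, had 17, 2 and 5 counts in the R63289 libraries and none elsewhere. Cyp2c70, which makes muricholic bile acids in mice, had 11 counts in R62848_3, 5 in R63289_3 and 1 in R62848_1. Cyp2c50 had 14 counts in all, in R63289 and R62848_3 only. Cyp3a11 was less restricted, with 80, 64 and 47 counts in R63289 and 72 in R62850_1, where Alb was 2.37 CPM. None of these 4 genes passed the filter. Without it, Cyp3a11 (adjusted p = 0.000569, edgeR) and Cyp3a44 (adjusted p = 0.00566) differed between codes, in a fit that called 29.1% of all genes. The part of liver RNA in these counts was not tested.

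The partners of these enzymes were expressed in every library. Por, the reductase that passes electrons to all microsomal P450 enzymes, had 30.0 to 50.7 RPKM and was highest in R63494_2 (adjusted p = 0.00183). Cyb5r3, Cyb5b and Pgrmc1, further electron carriers and haem-binding partners, had medians of 107, 66.02 and 63.5 RPKM, and all 5 genes of that list differed between codes. The count for this list and those that follow stand against 48.7% of all genes tested. For the haem synthesis and breakdown list, 7 of 10 genes differed. Alas1, the rate-limiting enzyme of haem synthesis, had 297 and 302 CPM in R63494, against 129 to 197 CPM elsewhere (adjusted p = 7.35e-08). The highest medians in the list were those of Alad (47.0 RPKM), Alas1 (34.8) and Hmox2 (25.7).

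Most regulators of these genes passed the filter. In the aryl hydrocarbon receptor list 5 of 7 genes differed between codes, and Nqo1 and Ahr had medians of 47.4 and 12.4 RPKM. Arnt, its partner, had a median of 7.04 RPKM, while the repressor Ahrr did not pass the filter. Of the 12 nuclear receptor and liver factor genes all passed and 6 differed, a share close to the 48.7% over all genes tested, and Cebpa and Hnf4a had medians of 44.4 and 40.5 RPKM. Nr1i2, the receptor PXR, and Nr1i3, the receptor CAR, had medians of 5.35 and 5.51 RPKM. Nr1i3 stood at 24.5 to 29.9 CPM in R62850, where Cyp2b10 was highest, and at 20.5 to 35.0 CPM elsewhere. Ppara, the receptor upstream of the Cyp4a genes, had a median of 0.350 RPKM.

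Enzymes acting beside or after the P450 reaction included genes above any of the 82 P450 members. Of the conjugation list 14 of 15 genes passed and 12 differed, led by Gsto1 (654 RPKM), Gsta4 (652) and Gstp1 (455), which encode glutathione transferases. The epoxide hydrolases Ephx2, which acts on fatty acid epoxides, and Ephx1, which acts on xenobiotic ones, had medians of 74.4 and 59.5 RPKM, and Lta4h of 28.5. In that list 8 of 10 genes differed between codes. Among P450 genes of other families 10 of 16 matched passed and 6 differed. Cyp51, of cholesterol synthesis, had a median of 31.0 RPKM, Cyp26a1, of retinoic acid breakdown, 21.2 and the orphan Cyp20a1 15.8. Cyp7a1, the first enzyme of bile acid synthesis in hepatocytes, had no counts.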

How the data were processed

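Per the submitters' processing notes, STAR 2.6.1c, featureCounts and edgeR 3.40.2 were used with build mm10, with no role or order given. The annotation release and strand setting are unstated in those sources. The deposited values are whole read counts per gene. Column names matched no sample title, so the 17 count columns were tied to the group bile duct as a whole. The other 17 value columns, a normalized form of the same libraries, were not used.

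Genes were kept with filterByExpr (minimum count 10, intercept only, edgeR 4.0.16 in R 4.3.3). CPM and RPKM used TMM-scaled totals of the kept genes, and fold ranges a prior count of 2. The factor of the F test was the column code, with Benjamini-Hochberg adjustment over all 15795 kept genes and a threshold of 0.05. As a check of the calculation only, the test was run on simulated counts with some genes raised in R62850. That pattern is simpler than the one in these data. DESeq2 1.42.0, limma 3.58.1, other scaling, no filter, each library left out and R62850 left out were alternatives. Members and lists were chosen with earlier results of these data known. Named were the 15 members with the highest median RPKM, the 8 with the widest range, family 1, the top gene of each subfamily of at least 3 members and leading list genes, of which some are not reported here. Genes with few counts and those that set a code apart were named after their values were seen. Coding sequences came from GENCODE M21 transcripts, where 48 of 82 members had the same start and end as in the table.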

Additional observations from a re-analysis of the deposited data

How the results depend on the processing

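The count of members differing between codes (19 of 26) was 18 to 20 with each library left out (43.4% to 51.5% of all genes), 19 with RLE scaling (48.9%) or limma (49.7%), 21 in the DESeq2 test (55.3%), 26 of 72 without a filter (29.1%) and 18 without R62850 (40.9%). The 19 members were called in every fit that tested them, but Cyp2b10 passed the filter in 2 of the 18 reduced sets. The 7 added without a filter were Cyp4f14, Cyp2j13, Cyp4f15, Cyp3a11, Cyp2d26, Cyp3a44 and Cyp2c67. A rule of at least 10 counts in 1 library kept 48 members in place of 26. A median of at least 1 RPKM was met by 22 members with total counts, while a threshold of 0.5 gave 28 and of 2 gave 17. By CPM, the top 5 members held 60.2% of the sum in place of 56.5%. The median range of the 24 named members was 5.66-fold, 3.05-fold without R62850, and 3.77-fold to 5.66-fold with each library left out. The deposited normalized columns were not run as a further setting. The cause of these changes was not tested. No paired analysis was possible because the columns carry no replicate number of the labels and there is only 1 group. Depth limits members under 3 counts per library, which cannot be told from 0.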
